A study of Bos taurus with 14 samples.

Results

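Liver and circulating neutrophils of Holstein cattle (Bos taurus) were compared before supplementation, which took the 7 arrays of day 0 out of the 14 arrays of the series. The samples were chosen by the tissue and the day in their titles, with no measured value. The liver group held 3 cattle (animals 58, 61 and 66) and the neutrophil group 4 other cattle (animals 25, 26, 32 and 34), so no animal gave both tissues and the comparison is unpaired. The study gave Holstein heifers or steers β-cryptoxanthin, a carotenoid that animals can cleave to vitamin A, once by mouth on day 0 at 0.2 mg per kg body weight. The labels give that agent and dose for all 7 animals and place these samples at day 0, so both groups share them, and the hour of sampling against dosing is not stated in the labels. The sex and age of single animals, and how the neutrophils were purified or the liver sampled, are not stated in the labels. A single-colour array with 15208 probe spots, or 15011 distinct probes of 60 bases, measured each RNA sample.

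The liver is the main source of the proteins of blood plasma. Its hepatocytes also carry out gluconeogenesis, the urea cycle, ketone body and bile acid synthesis and the oxidation of drugs and steroids, while Kupffer cells, endothelium and stellate cells make up the rest of the tissue. Neutrophils are short-lived phagocytes that leave the blood along gradients of chemoattractants, kill microbes with an oxidative burst and with granule proteins, and are rich in actin and in receptors for microbial products. The question here is how large the difference between both programmes was on these arrays, and which genes on lists of either programme did not follow it.

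Values are log2 of the background-corrected spot signal minus the array's 75th percentile, so 0 is a signal at that percentile, and they are listed in the order of the animals above. A difference is liver minus neutrophils, in log2 units, ± the standard error of the fit (n = 3 and n = 4), and is positive where liver was higher. A probe passed when its difference exceeded 4-fold by limma's treat test with an adjusted p (Benjamini-Hochberg over all 11498 probes tested) under 0.05. Where no array of the dimmer tissue had the probe well above background, the fold is a lower bound, written as at least, which sets the dimmer arrays at the higher of their lowest well-measured signal and the probe's own. The test used the signals as read, so a probe can pass with a lower bound under 4-fold. A list's median with bounds sets its unmeasured members at these bounds. Levels are not compared between probes. The p-values rest on the spread between the arrays of these animals. Where the dimmer tissue was not measured, its values can be the lowest value of each array. Their spread is then not one between animals. Genes were named by a rule of size given with the methods, which also lists the genes that were chosen after their values were seen. Each tissue filled its own slide, scanned on its own, so tissue cannot be told apart from slide and scan. Small differences are therefore given as values without weight.

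Spots well above background made up 74.7 to 76.7% of each liver array and 63.5 to 71.6% of each neutrophil array. The correlation over the probes tested lay between 0.977 and 0.981 within liver, between 0.983 and 0.987 within neutrophils and between 0.437 and 0.479 across the tissues. The median SD between animals was 0.238 in liver and 0.281 in neutrophils, against a median absolute difference of 1.837 between the tissues. Very dim spots held a common lowest value per array (-8.10, -8.05, -7.93 and -7.03 in neutrophils and -9.02, -8.90 and -8.95 in liver), which recurs below wherever a transcript was not measured. The first 16 rows of spots stood apart, with a median difference of -1.01 against -0.01 in the inner rows (all but 40 at each edge), as the profile along the rows shows, and 31.0% of their probes passed for neutrophils against 16.2% in the inner rows. Genes whose probe lies in these rows are marked as edge-row genes.

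**Figure D1:**
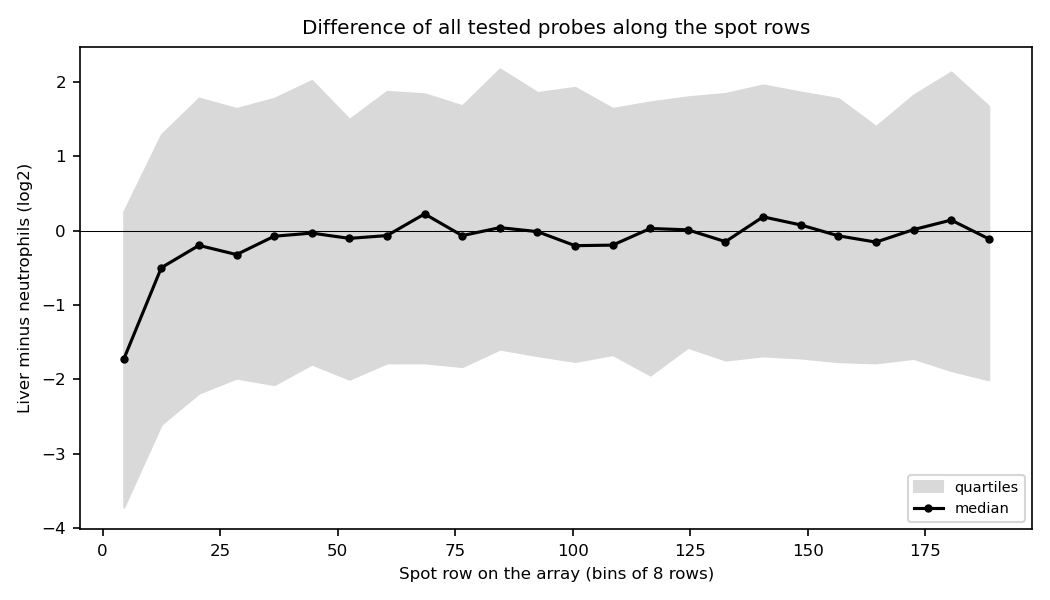
Difference between liver and neutrophils (liver minus neutrophils, log2) of all 11498 tested probes along the spot rows of the array, in bins of 8 rows. The line gives the median and the band the quartiles. The median lies at -1.728 in the first 8 rows and at -0.497 in the next 8, and between -0.321 and 0.225 in all other bins.

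Of the 11498 probes, 1887 (16.4%) passed for liver and 2040 (17.7%) for neutrophils. In 794 and 260 of these the dimmer tissue was not well above background on any array. At any size, 9559 probes (83.1%) differed (limma eBayes, adjusted p under 0.05). Over all probes that passed, with the signals as read, the differences in favour of liver were larger. Their median was 4.80 with 648 of them beyond 64-fold, against -3.84 and 275 in neutrophils. Of the liver calls 1104 were probes measured well on all liver arrays but not on all neutrophil arrays, and 442 of the neutrophil calls were the converse. Among the 8758 probes well above background on all 7 arrays, 783 were higher in liver and 1598 in neutrophils, with medians of 3.77 and -3.69 and with 118 and 172 of them beyond 64-fold. In these fully measured probes the medians were thus close in size, and more of the neutrophil calls lay beyond 64-fold. Scaling moved the split. With the 75th percentile taken over the probes measured on all 7 arrays, the median difference moved from -0.117 to 0.451 and the calls to 2413 for liver and 1460 for neutrophils, or 62.3% for liver in place of 48.1%. With median scaling that median was -0.416 and the calls were 1676 and 2326, and no probe that passed in one direction passed in the other under any alternative.

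A symbol could be given to 6681 genes, of which 5486 were tested, each by its brightest probe. Of these, 959 (17.5%) passed for liver and 958 (17.5%) for neutrophils, and the values of both groups did not overlap for 82.8% of all tested genes and for each of the genes that passed. For the 4292 genes well above background on all 7 arrays the shares were 9.81% for liver and 17.8% for neutrophils. The shares for all genes tested, and these shares for lists restricted to fully measured genes, are the background for every list below. In the plot of group means the genes that passed form separate wings, reaching the lowest measurable value of the other tissue.

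**Figure D2:**
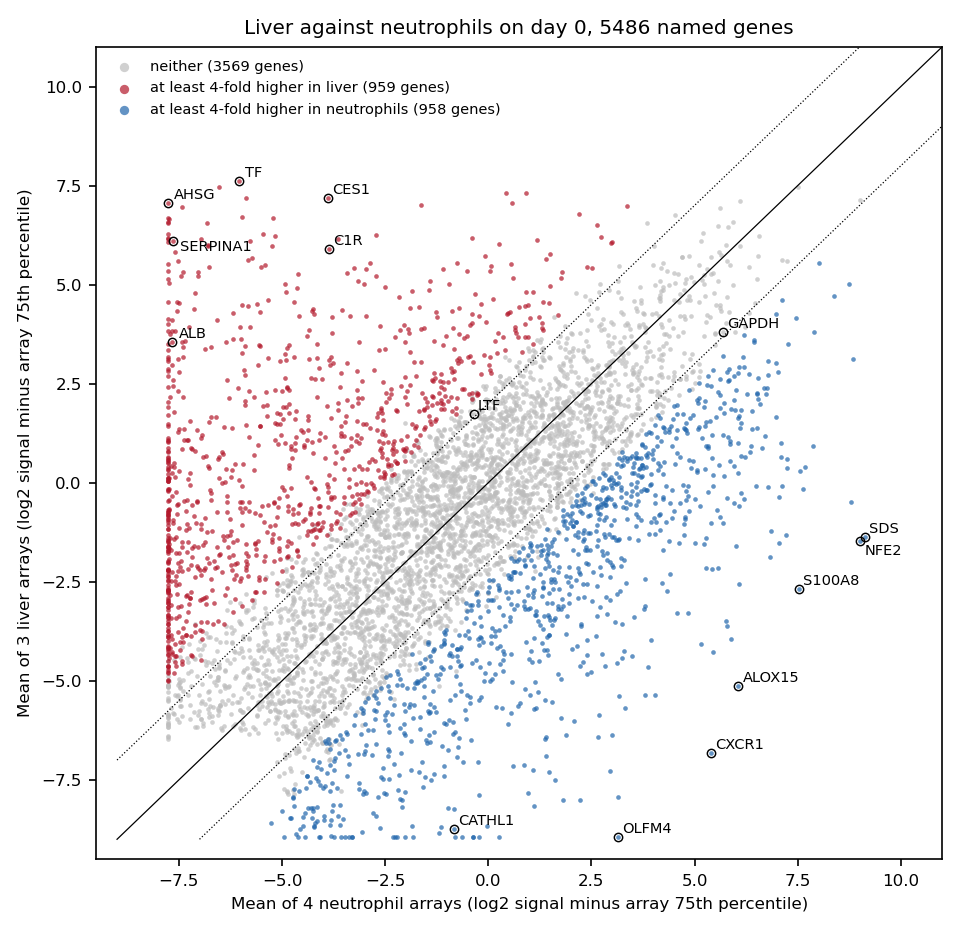
Mean log2 signal (minus the array's 75th percentile) of 5486 named genes, with 3 liver arrays on the vertical axis and 4 neutrophil arrays on the horizontal. Red and blue points passed the test for a difference above 4-fold (959 and 958 genes), the solid line marks equality and the dotted lines 4-fold. Genes stacked at the left and bottom edges were at the lowest value of the other tissue.

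The largest differences for liver belonged to secreted plasma proteins and metabolic enzymes. TF, transferrin, the iron carrier of plasma, read 7.68, 7.61 and 7.55 in liver and -5.94, -5.68, -6.40 and -6.17 in neutrophils. That is a difference of 13.66 ± 0.20, or 12901-fold (adjusted p = 9.14e-09), with the neutrophil signal well above background in 1 of 4 animals. AHSG, the fetuin that binds calcium phosphate in plasma, read 7.19, 7.04 and 6.97 in liver and -8.10, -8.05, -7.93 and -7.03 in neutrophils. All neutrophil values sit at the lowest value of their arrays, so AHSG was at least 5974-fold higher in liver. Its adjusted p of 2.18e-08 by treat takes these lowest values as read. PLG, the precursor of the clot-dissolving protease plasmin, read 6.89, 7.07 and 6.93 in liver and -7.35, -7.47, -7.89 and -7.03 in neutrophils and was at least 5569-fold higher. Neutrophil values of both genes were not well above background on any array. Among enzymes, HGD, which opens the ring of homogentisate in tyrosine breakdown, read 6.68, 6.71 and 6.71 in liver and -5.68, -6.19, -5.65 and -6.38 in neutrophils (12.68 ± 0.22, 1 of 4 neutrophil samples well above background). In each of these 4 genes the livers lay close together, and no animal of either tissue came near the other group.

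The remaining leading genes for liver were SERPINA3 (8548-fold, 1 of 4 neutrophil samples well above background) and SERPINA3-7 (at least 7920-fold), serine protease inhibitors of a bovine gene cluster whose close copies a 60-base probe may not separate, SPP2 (at least 4507-fold), a phosphoprotein of plasma and bone, KNG1 (at least 4236-fold), the kininogen that yields bradykinin, and FABP1 (at least 4220-fold), the fatty acid carrier of the hepatocyte. ASGR1, a subunit of the hepatocyte receptor for desialylated glycoproteins, read 6.03, 5.68 and 3.93 in liver and -8.10, -7.66, -5.40 and -7.03 in neutrophils, with liver animal 66 below the other livers and 1 of 4 neutrophil samples well above background (4916-fold). SULT2A1, a sulfotransferase of steroids and bile acids, read 5.39, 5.14 and 5.82 in liver and -7.77, -8.05, -7.65 and -3.64 in neutrophils (12.23 ± 1.0, adjusted p = 2.95e-05). Of the neutrophil samples, animal 34 alone was well above background. The plot of each animal's values shows these genes beside the leading neutrophil genes.

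**Figure D3:**
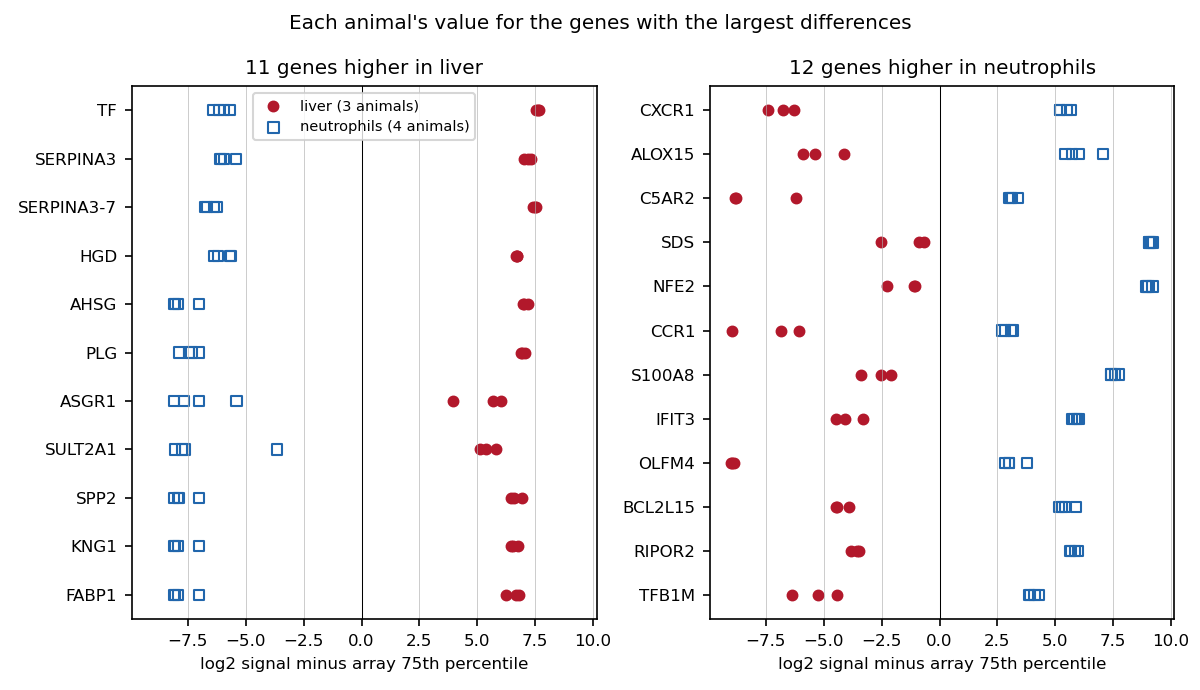
Log2 signal minus the array's 75th percentile in each animal (red circles, 3 livers; blue squares, 4 neutrophil samples) for 11 of the 12 genes with the largest difference for liver and the 12 for neutrophils. No gene's groups overlap, and SULT2A1 in neutrophil animal 34 (-3.64) and ASGR1 in liver animal 66 (3.93) lie apart from their groups.

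In neutrophils the leading genes were receptors for chemoattractants, alarmins and regulators of myeloid cells, together with single genes of other known roles. CXCR1, a receptor for the chemokine CXCL8, read 5.22, 5.68, 5.52 and 5.20 in neutrophils and -7.42, -6.29 and -6.78 in liver (-12.23 ± 0.28, or 4816-fold, adjusted p = 3.08e-08). The design of the array names this probe after the related receptor CXCR2 under an older symbol, and the RefSeq gene table gives its accession to CXCR1, so a signal of both receptors cannot be told apart by name. C5AR2, the second receptor for the complement fragment C5a, read 3.40, 3.15, 3.0 and 3.06 in neutrophils and -8.84, -6.19 and -8.80 in liver, and CCR1, a receptor for several CC chemokines, read 3.16, 2.69, 2.82 and 3.09 in neutrophils and -6.84, -6.07 and -8.95 in liver. Each of these 3 receptors was well above background in 1 of 3 livers. ALOX15, a lipoxygenase that adds oxygen to arachidonic acid and is known from eosinophils and macrophages, read 5.44, 6.03, 7.05 and 5.73 in neutrophils and -5.36, -4.12 and -5.88 in liver, highest in neutrophil animal 32 (-11.18 ± 0.50). S100A8, a subunit of the alarmin calprotectin, read 7.43, 7.58, 7.41 and 7.73 in neutrophils and -3.41, -2.09 and -2.52 in liver (-10.21 ± 0.30), and NFE2, a transcription factor known from the megakaryocyte and erythroid lineages, read 8.90, 9.20, 9.03 and 8.95 in neutrophils and -2.26, -1.06 and -1.10 in liver (-10.49 ± 0.30).

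The gene with the largest opposite value on any liver list was SDS, serine dehydratase, an enzyme that deaminates serine to pyruvate and is known for its place in hepatic gluconeogenesis. It read 9.07, 9.24, 9.06 and 9.14 in neutrophils and -2.53, -0.68 and -0.90 in liver, a difference of -10.50 ± 0.41 (adjusted p = 4.17e-07). The mean was 9.13 ± 0.08 (SD, n = 4) in neutrophils and -1.37 ± 1.01 (SD, n = 3) in liver, and all 7 samples were well above background. The array design describes this probe as similar to the human gene. OLFM4, a granule protein of a subset of neutrophils in other species, read 2.99, 3.77, 2.83 and 3.01 in neutrophils and -9.02, -8.90 and -8.95 in liver and was at least 894-fold higher in neutrophils, with every liver at its array's lowest value. Also leading were IFIT3 (904-fold), an interferon-induced antiviral protein, BCL2L15 (834-fold, edge row), a relative of known apoptosis regulators, RIPOR2 (682-fold), an inhibitor of RhoA in leukocyte polarity, and TFB1M (671-fold), a methyltransferase of the mitochondrial ribosome. The groups of each lie far apart in the plot of each animal's values.

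The probes behind these statements are shown for 4 genes, as the first 30 of their 60 bases, 5′ to 3′, because the identity of these genes rests on them. They are AHSG and PLG as leading liver genes, CXCR1 for its 2 names and SDS for its direction. Positions of the probes in the genome were not used here. The longest run shared with any other probe of the array was 23 bases for AHSG, 16 for PLG, 12 for CXCR1 and 13 for SDS.
AHSG: ctgtgactttgaaaggtgctcttgccaagt
PLG: aacatgttcctgactgtggactgctggatt
CXCR1: ttgctatgttctgtggtataaataaatgct
SDS: aggctgtgaactgaagtcttttgagtgttt

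The bovine cathelicidins, a family of granule peptides that punch microbial membranes, are close copies of each other, so probes to single members are shown as bases 5 to 34 of 60, with the longest run shared with another family member in capitals. CATHL3 and CATHL4 shared 12 bases, CATHL1 shared 11 with CATHL3 and CATHL2 shared 9 with CATHL4. CATHL6, CAMP and CATHL5 shared at most 8, 7 and 6 with any other member. The longest run shared with any other probe of the array was 12 bases for CATHL1, 12 for CATHL2, 14 for CATHL3 and 12 for CATHL4. It was 13 for CATHL5, 14 for CATHL6 and 12 for CAMP. The runs within the family were thus no longer than those found over the whole array.
CATHL1: aagccagcagaGTCCTAAGGGTtttcttac
CATHL2: aGGGCTTCTGatgaatcagaagcccaggga
CATHL3: acagaagggtcctaaggGTCTGATTTGTTt
CATHL4: gggaagagtcttaagtGTCTGATTTGTTca

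Plasma carriers and apolipoproteins, which move lipids, hormones, metals and vitamins through the blood, were higher in liver for every tested member. Of 26 members on the array all 26 passed for liver, with differences from 3.62 to 14.8 (median 8.34), against a background of 17.5%. Of them 17 were not measured on all neutrophil arrays and were tested through the liver arrays alone. Among all such probes 1104 of 2134 passed for liver. The 9 measured on all 7 arrays are therefore given apart, and all 9 of these passed (background 9.81%). APOA1, the main protein of high-density lipoprotein, read 5.66, 5.68 and 5.33 in liver and -2.79, -2.83, -3.03 and -2.81 in neutrophils (8.42 ± 0.16), and CLU, clusterin, a secreted chaperone, read 7.30, 7.0 and 6.86 in liver and 3.03, 1.96, -1.87 and -0.82 in neutrophils (6.48 ± 1.09). The smallest difference was that of APOE, a lipoprotein ligand that macrophages also secrete, which read 7.44, 7.16 and 6.35 in liver and 3.49, 3.2, 3.2 and 3.54 in neutrophils (3.62 ± 0.27). In each of these the lowest liver value exceeded the highest neutrophil value. ITIH3, a heavy chain of the hyaluronan-binding inter-α-inhibitor, read 6.68, 6.49 and 6.89 in liver and -6.15, -4.62, -5.51 and -4.60 in neutrophils (11.91 ± 0.38, 3 of 4 neutrophil samples well above background). Members not well above background in any neutrophil sample included ALB, serum albumin (at least 520.5-fold), TTR, the thyroxine and retinol-binding protein carrier (at least 638-fold), APOH (at least 3212-fold), a phospholipid-binding plasma protein, RBP4, the plasma retinol carrier (at least 2032-fold), and AMBP (at least 3160-fold, edge row, 2 livers since an outlier spot was left out), the precursor of a lipocalin and of bikunin.

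Coagulation factors followed the same direction. Of 20 members tested (20 on the array), 17 passed for liver and 0 for neutrophils (0 at an unadjusted p under 0.05 by treat and 0 at any size by eBayes), with a median difference of 10.20 (8.98 with bounds). For the 6 measured on all 7 arrays the counts were 3 and 0 and the median 3.07. F2, prothrombin, read 6.16, 6.29 and 6.22 in liver and -4.97, -5.55, -4.86 and -5.33 in neutrophils (11.40 ± 0.20), and SERPINF2, the inhibitor of plasmin, read 6.75, 6.67 and 3.45 in liver and -5.42, -5.38, -5.52 and -7.03 in neutrophils (11.46 ± 0.82). HRG, a plasma glycoprotein that binds heparin and plasminogen, was measured on all arrays and read 5.30, 5.12 and 4.61 in liver and -5.56, -4.93, -4.82 and -4.38 in neutrophils (9.93 ± 0.30). No neutrophil sample reached a liver in any of the 3, and SERPINF2 was lower in liver animal 66 than in the other livers. SERPINA1, the plasma inhibitor of neutrophil elastase, was at least 3066-fold higher in liver. The 3 that did not pass were F5 (1.36 ± 0.20), F7 (1.63 ± 0.21) and F12 (1.87 ± 0.40), all measured in both tissues (adjusted p of 1, 1 and 1 by treat).

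The complement list split by gene. With 21 of 21 members on the array tested, 16 passed for liver and 3 for neutrophils, with a median difference of 6.97. For the 11 measured on all 7 arrays the counts were 7 and 3 and the median 6.01. C1R and C1S, the proteases of the first component, were 866-fold and at least 1223-fold higher in liver, and the chains of the membrane attack complex C8A and C8B at least 2542-fold and 3781-fold (C8B well above background in 1 of 4 neutrophil samples). C4BPA, an inhibitor of the classical pathway, was at least 3007-fold higher. Opposite to these was FCN1, a lectin of monocytes and granulocytes, which read 7.16, 6.97, 6.44 and 6.82 in neutrophils and -1.77, -0.69 and -1.21 in liver (-8.07 ± 0.28). CFP, properdin, which stabilises the alternative convertase and is stored in neutrophil granules, read 0.63, 0.58, 0.25 and 0.64 in neutrophils and -3.45, -3.54 and -3.49 in liver (-4.02 ± 0.16), and CFD, the alternative-pathway protease adipsin, read 7.53, 7.67, 7.34 and 7.31 in neutrophils and 4.17, 4.28 and 4.04 in liver (-3.30 ± 0.16). The neutrophil samples lay above every liver in all 3 genes. The chains of C1q, made by macrophages, did not move together. C1QB and C1QC were higher in liver (6.50 ± 0.31 and 6.02 ± 0.42), whereas C1QA had -1.95 ± 0.27 and did not pass (adjusted p = 1). COLEC11, a soluble lectin, had 0.65 ± 0.23 and did not pass either. CFP (-2.63) did not pass on the day 7 arrays.

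Acute phase proteins, which rise in plasma in inflammation, were mostly higher in liver. Among 11 tested members (of 11 on the array), 9 passed for liver and 1 for neutrophils, with a median difference of 11.20 (10.80 with bounds). For the 5 measured on all 7 arrays the counts were 3 and 1 and the median 3.49. FGA, FGB and FGG, the chains of fibrinogen, were at least 3453-fold, 2409-fold and at least 1788-fold higher, and SAA3, a serum amyloid A, at least 2810-fold. HAMP, hepcidin, the hormone that limits iron export, read 0.84, 0.34 and -1.12 in liver and -4.76, -4.22, -4.47 and -3.72 in neutrophils (4.31 ± 0.46). HP, haptoglobin, which binds free haemoglobin and in cattle is also held in neutrophil granules, did not pass, and read 2.16, 3.77 and 1.69 in liver and 1.32, -0.44, 0.15 and 1.99 in neutrophils (1.79 ± 0.68, adjusted p = 1). HP was well above background in all 7 animals, and on the day 7 arrays of the same cattle its difference was -0.38. PTX3, the long pentraxin that neutrophils store in granules, went the other way and read -0.07, -0.01, 1.82 and 1.14 in neutrophils and -6.49, -4.42 and -6.02 in liver (-6.36 ± 0.61). HAMP (3.05) did not pass with normexp background correction.

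Drug and steroid metabolising enzymes were mostly higher in liver. The array held 27 members, of which 25 were tested, 22 passed for liver and 1 for neutrophils, with a median difference of 8.63. For the 12 measured on all 7 arrays the counts were 9 and 1 and the median 5.03. CES1, a carboxylesterase of drugs and lipid esters, was measured on every array and read 6.92, 7.19 and 7.44 in liver and -3.62, -4.26, -4.17 and -3.52 in neutrophils (11.08 ± 0.24). CYP2E1, the ethanol-inducible cytochrome P450, read 5.05, 6.05 and 5.92 in liver and -5.22, -6.36, -6.15 and -5.22 in neutrophils (11.41 ± 0.37, neutrophil signal measured in 1 animal). GSTA2, a glutathione transferase, was at least 3166-fold higher, and ALDH1A1, a retinaldehyde dehydrogenase, at least 2843-fold. The exception was MAOA, the mitochondrial amine oxidase of serotonin and noradrenaline, at 0.57, 0.72, -0.03 and 0.31 in neutrophils and -4.97, -3.64 and -4.38 in liver (-4.72 ± 0.33), while the paralogue MAOB was at least 117-fold higher in liver. The related oxidases thus passed in opposite directions. SULT1A1 (0.99 ± 0.15) and CYP17A1 (-1.12 ± 0.17) did not pass.

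Enzymes that break down amino acids and make urea were mostly higher in liver. Of 24 members tested (25 on the array), 17 passed for liver and 1 for neutrophils, with a median difference of 5.02. For the 15 measured on all 7 arrays the counts were 8 and 1 and the median 2.81. BHMT, which returns homocysteine to methionine, was at least 1032-fold higher and DMGDH, the mitochondrial dehydrogenase of dimethylglycine, at least 607-fold. TAT, the first enzyme of tyrosine breakdown, also passed, with no neutrophil sample well above background. ASS1 and ASL, the next steps of the urea cycle, were measured on all arrays and differed by 4.58 ± 0.24 and 6.97 ± 0.29. SDS, given above, was the member higher in neutrophils. AHCY (-0.57 ± 0.92), which splits adenosylhomocysteine, and BCKDHA (1.75 ± 0.18), of branched-chain amino acid breakdown, did not pass.

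Genes of gluconeogenesis, fructose and glycogen were mostly higher in liver. With 16 of 16 members on the array tested, 11 passed for liver and 2 for neutrophils, with a median difference of 5.21. For the 12 measured on all 7 arrays the counts were 7 and 2 and the median 4.83. PCK1, the cytosolic phosphoenolpyruvate carboxykinase, read 5.87, 5.05 and 5.73 in liver and -2.34, 0.18, -0.73 and -0.19 in neutrophils (6.32 ± 0.56), and PC, pyruvate carboxylase, read 3.82, 3.67 and 4.12 in liver and -1.77, -1.97, -2.02 and -2.07 in neutrophils (5.83 ± 0.17). G6PC1, the phosphatase that releases glucose, differed by 5.64 ± 0.25 and PPP1R3C, which guides a phosphatase to glycogen, by 6.81 ± 0.45 (3 of 4 neutrophil samples well above background in both). SLC2A2, the low-affinity glucose transporter of hepatocytes, was at least 64.3-fold higher in liver and SLC2A3, the high-affinity transporter of blood cells, at least 309.8-fold higher in neutrophils. The members of this transporter family thus passed in opposite directions, and UGP2, which makes UDP-glucose, had 0.06 ± 0.15 and did not pass. TALDO1, transaldolase of the pentose phosphate pathway (-4.03 ± 0.20; edge row), and GK, glycerol kinase (-3.10 ± 0.17), were the members higher in neutrophils. GK (-2.95) did not pass on the day 7 arrays.

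Fatty acid oxidation and ketogenesis were higher in liver for most members. Among 26 tested members (of 26 on the array), 19 passed for liver and 0 for neutrophils (0 at an unadjusted p under 0.05 by treat and 2 at any size by eBayes), with a median difference of 4.46 (3.41 with bounds). For the 15 measured on all 7 arrays the counts were 10 and 0 and the median 3.42. DECR2, a peroxisomal reductase of unsaturated fatty acids, read 3.55, 3.82 and 3.97 in liver and -3.64, -3.63, -3.91 and -3.97 in neutrophils (7.57 ± 0.18), and ACSM1, which activates medium-chain fatty acids, read 5.02, 5.46 and 5.30 in liver and -4.62, -4.65, -4.50 and -4.73 in neutrophils (9.89 ± 0.16, edge row). CROT, which passes medium-chain fatty acids from peroxisomes to carnitine, differed by 7.67 ± 0.92 (2 of 4 neutrophil samples well above background). ACADVL, the dehydrogenase of very long acyl chains, had 1.49 ± 0.19 and SLC25A20, the carnitine carrier of mitochondria, 2.61 ± 0.59, and both did not pass. Of the bile acid list, 8 members were tested and 5 passed for liver (background 17.5%), with a median difference of 4.77 (3.62 with bounds). Of the 8, 7 were not measured on all neutrophil arrays, and the 1 measured on all 7 arrays did not pass. The list's median was 2.24 with normexp background correction. Those that passed included CYP8B1, the sterol hydroxylase that sets cholic acid output (at least 893-fold), and SLCO1B3, an uptake carrier of organic anions (at least 1050-fold). ABCG5 (at least 16.2-fold, edge row) and ABCG8 (at least 31.7-fold), the paired exporters of sterols into bile, also passed. SLC10A1, the sodium-dependent bile acid carrier, had 3.21 ± 0.68 (edge row) and did not pass (adjusted p = 0.152), nor did SLC51B, of the basolateral bile acid exporter (2.28 ± 0.60). ABCG5 (2.60) did not pass with normexp background correction.

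Transcription factors known from hepatocytes were higher in liver for most members. The array held 20 members, of which 20 were tested, 15 passed for liver and 1 for neutrophils, with a median difference of 5.25 (4.0 with bounds). For the 6 measured on all 7 arrays the counts were 2 and 1 and the median 0.68, and the list's median was 2.74 with normexp background correction. FOXA3 was at least 525-fold higher in liver, NR5A2 at least 65.9-fold and FOXA2 at least 46.1-fold. CREB3L3, a membrane-bound factor of fasting and acute phase genes, differed by 8.13 ± 0.24 (well above background in 2 of 4 neutrophil samples), and THRB, a thyroid hormone receptor, by 5.53 ± 0.71 (edge row, 1 of 4). HNF4A, the central factor of the hepatocyte, read -3.45, -3.48 and -3.64 in liver and -5.14, -4.53, -4.95 and -5.59 in neutrophils and did not pass (1.53 ± 0.25, adjusted p = 1). All 3 livers were well above background in HNF4A. GATA4 (-1.0 ± 0.47) and GATA6 (2.37 ± 0.19), zinc-finger factors of endoderm, did not pass. RXRA, the partner of nuclear receptors, was higher in neutrophils by its brighter probe (-3.03 ± 0.23, edge row). A dimmer probe of RXRA had -2.58 and did not pass, nor did the brighter probe once the trend along the rows was removed (-1.88). RXRA (-3.03 to -0.13) did not pass with the percentile over probes measured on all 7 arrays, over all 14 arrays with the animal as a random block or on the day 7 arrays.

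**Figure D4:**
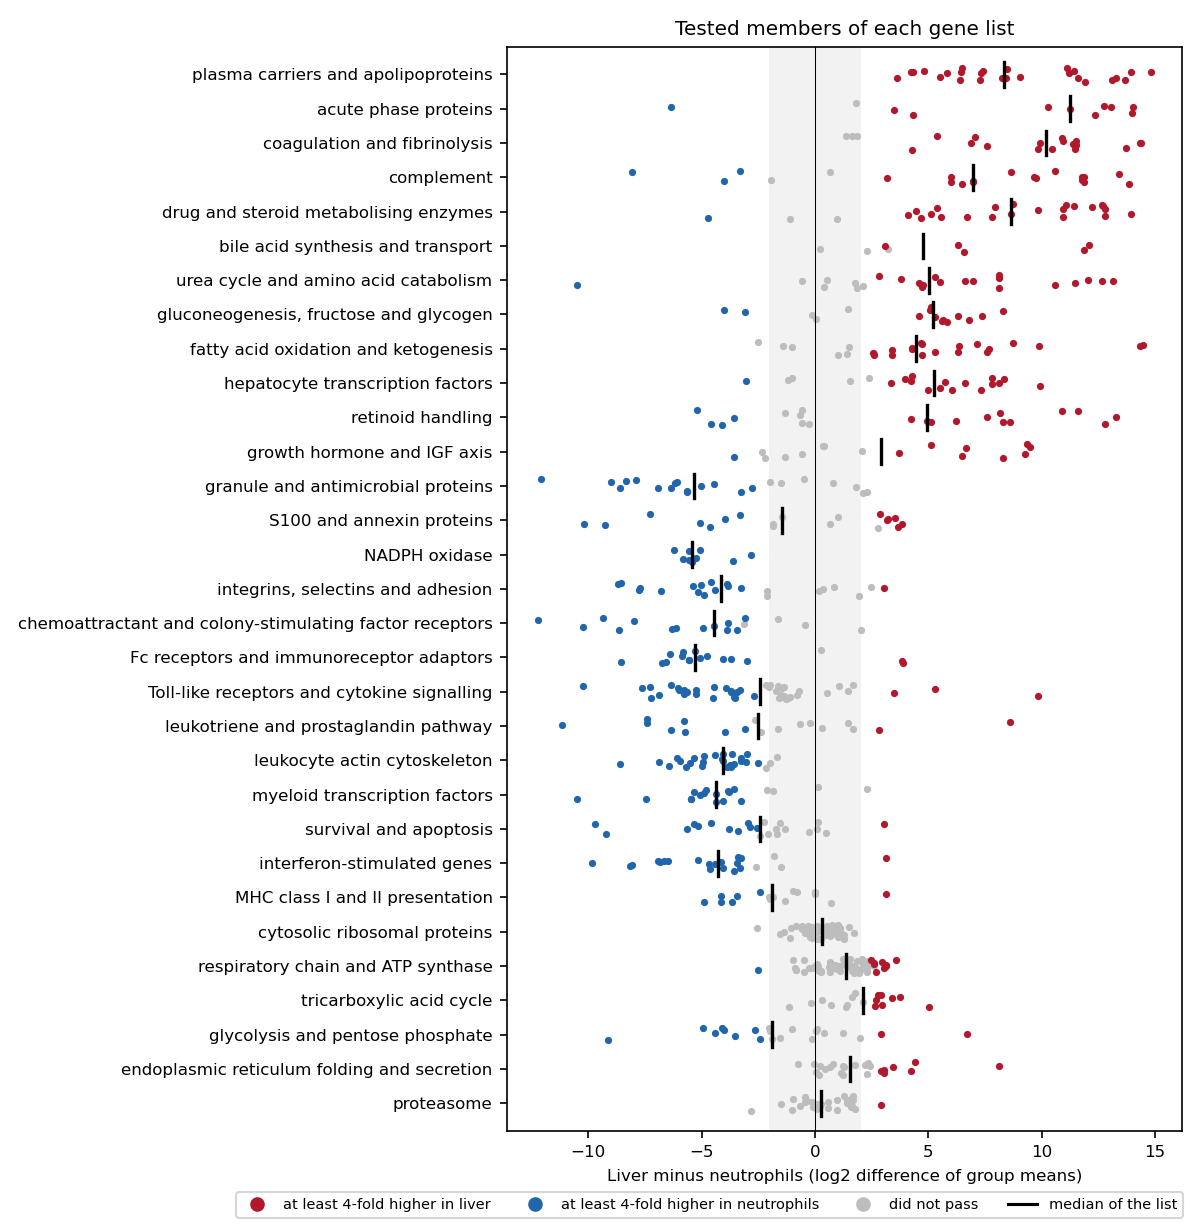
Log2 difference (liver minus neutrophils) of every tested member of 31 gene lists. Red and blue points passed the test for a difference above 4-fold, grey points did not, the black bar is the list's median and the grey band marks 4-fold. Lists of secreted and metabolic liver functions lie to the right and lists of phagocyte functions to the left, with single members on the other side, while ribosomal and proteasome genes centre near 0.

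Retinoid handling, the list nearest to the carotenoid of the study, was divided between both tissues. Of 21 members tested (23 on the array), 12 passed for liver and 4 for neutrophils, with a median difference of 4.95 (4.43 with bounds). For the 9 measured on all 7 arrays the counts were 2 and 3 and the median -0.67, and the list's median was 2.84 with normexp background correction and -0.41 over the inner spot rows alone. RDH16, a retinol dehydrogenase, read 3.52, 2.89 and 1.78 in liver and -5.66, -5.14, -6.38 and -6.41 in neutrophils (8.63 ± 0.46, 2 of 4 neutrophil samples well above background), and RARRES2, the secreted chemerin, read 5.43, 5.34 and 5.73 in liver and -5.09, -5.55, -5.58 and -5.43 in neutrophils (10.91 ± 0.19). RBP4, TTR and ALDH1A1, given above, were the other members with the largest differences. LRAT, which esterifies retinol for storage, was at least 21.6-fold higher in liver. Receptors of retinoic acid were higher in neutrophils: RARA read 6.59, 6.97, 6.31 and 6.45 in neutrophils and 1.78, 2.0 and 2.18 in liver (-4.59 ± 0.20) and RARG read 3.10, 3.45, 3.37 and 3.2 in neutrophils and -1.91, -1.57 and -2.36 in liver (-5.22 ± 0.21), with no overlap of the groups. ALDH8A1 (-0.56 ± 0.18) and DHRS3 (-0.67 ± 0.18), a dehydrogenase and a reductase of retinal, did not pass. SCARB1, the scavenger receptor that takes up carotenoids and cholesterol esters, read 1.78, 1.91, 1.28 and 1.48 in neutrophils and -2.23, -2.52 and -2.75 in liver (-4.11 ± 0.21), and STRA6, the membrane receptor of RBP4, differed by -3.56 ± 0.56 (well above background in 1 of 3 livers). STRA6 did not pass without liver animal 58 or 66 or neutrophil animal 26, 32 or 34 (-3.69 to -2.90). STRA6 (-3.56 to -0.90) also did not pass with the percentile over probes measured on all 7 arrays, with normexp background correction, over all 14 arrays with the animal as a random block or with array weights.

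Members of the growth hormone and IGF axis passed more often for liver than for neutrophils. With 16 of 16 members on the array tested, 8 passed for liver and 1 for neutrophils, with a median difference of 2.90. For the 12 measured on all 7 arrays the counts were 4 and 1 and the median 0.38, and the list's median was 0.34 over the inner spot rows alone. At any size (eBayes) 9 were higher in liver and 5 in neutrophils. GHR, the growth hormone receptor, was at least 125-fold higher, PRLR, the prolactin receptor, at least 146-fold, IGFBP3, the main IGF carrier of plasma, at least 142-fold, IGFBP2, another IGF carrier, 652-fold (1 of 4 neutrophil samples well above background) and IGFALS, the subunit that stabilises IGF in plasma, 101-fold. IGF1 itself did not pass, and its probes had opposite signs, -2.20 ± 0.48 for the brighter and 1.77 for the other. SOCS2 (2.10 ± 0.47), a feedback inhibitor, and IGF2R (-0.59 ± 0.17), a clearance receptor, did not pass. STAT5B, a signal transducer of the growth hormone receptor, was higher in neutrophils (-3.59 ± 0.18).

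Granule and antimicrobial proteins, made mostly in bone marrow precursors and stored until release, were higher in neutrophils for the cathelicidins and a set of lectins and proteases. Among 22 tested members (of 24 on the array), 15 passed for neutrophils and 0 for liver (0 at an unadjusted p under 0.05 by treat and 4 at any size by eBayes), with a median difference of -5.34 (-3.35 with bounds). For the 10 measured on all 7 arrays the counts were 4 and 0 and the median -1.22, and the list's median was -1.67 with normexp background correction and -3.28 over the inner spot rows alone. CATHL1 read -0.81, -0.54, -1.17 and -0.78 in neutrophils and -8.75, -8.53 and -8.95 in liver and was at least 56.9-fold higher in neutrophils, with CATHL2 at least 16.3-fold, CATHL3 at least 77.9-fold and CATHL4 at least 65.2-fold (edge row). CAMP was at least 8.38-fold higher and CATHL6 6.82-fold, the latter not passing without liver animal 66 (-2.59), whereas CATHL5 had -0.47 ± 0.37 and did not pass. None of the 4 cathelicidins with printed probes was well above background in any liver, so their bounds give no order of size. PGLYRP1, a peptidoglycan-binding granule protein, was at least 10.3-fold higher (edge row) and CHI3L1, a chitinase-like lectin, 509-fold (2 of 3 livers well above background). MMP9, the gelatinase of tertiary granules, read 2.71, 2.73, 2.65 and 3.42 in neutrophils and -3.41, -3.38 and -3.16 in liver (-6.20 ± 0.22), and SRGN, the proteoglycan that packs granule proteases, read 7.85, 7.98, 7.79 and 7.84 in neutrophils and 0.92, 0.85 and 1.04 in liver (-6.93 ± 0.14). CATHL2 (-1.89), CAMP (-1.24) and PGLYRP1 (-1.55) did not pass with normexp background correction. CATHL6 (-2.83 to -2.08) did not pass with the percentile over probes measured on all 7 arrays, with normexp background correction, over all 14 arrays with the animal as a random block or on the day 7 arrays.

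LTF, lactoferrin of the specific granules, did not follow the other granule genes. It read 1.0, 3.01 and 1.22 in liver and -0.39, -0.46, -0.35 and -0.22 in neutrophils, a difference of 2.10 ± 0.44 towards liver that did not pass (adjusted p = 0.911), and on the day 7 arrays of the same cattle LTF had -0.62. Liver animal 61 stood above the other livers, and these were still above all 4 neutrophil samples. CTSZ (2.30 ± 0.23) and CTSS (-1.97 ± 0.20), lysosomal cathepsins, also did not pass.

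Of the S100 and annexin calcium-binding proteins, single members set both ends. The array held 19 members, of which 19 were tested, 7 passed for neutrophils and 6 for liver, with a median difference of -1.45. For the 16 measured on all 7 arrays the counts were 6 and 4 and the median -1.66, and the list's median was -0.88 with the percentile over probes measured on all 7 arrays. S100A12, an alarmin of granulocytes, read 8.71, 8.86, 8.63 and 9.01 in neutrophils and -1.08, 0.07 and -0.43 in liver (-9.28 ± 0.27), and ANXA1, the annexin that limits neutrophil recruitment, read 7.55, 7.98, 7.39 and 7.75 in neutrophils and -0.02, 0.71 and 0.50 in liver (-7.27 ± 0.23). S100A11 (-5.06 ± 0.19) also passed for neutrophils, and S100A7 as well (-4.64 ± 0.36, 2 of 3 livers well above background). S100A14 (3.84 ± 0.22), known from epithelia, ANXA4 (3.55 ± 0.26) and ANXA6 (3.17 ± 0.30, edge row), membrane-binding annexins, and S100A16 (2.87 ± 0.15) were higher in liver. S100B was at least 7.11-fold and S100G at least 2.15-fold higher in liver, of which S100G did not pass without liver animal 58 or 66 (3.15 and 3.08). The bound of S100G lies under the 4-fold of the test. ANXA2 (1.02 ± 0.37) and ANXA3 (-1.87 ± 0.31) did not pass. The median over the 10 members in the inner spot rows was 2.83, opposite in sign to that of the list, and close relatives in this family may share signal. S100A7 (-2.06) and S100G (0.73) also did not pass with normexp background correction. S100B (1.42 to 3.67) did not pass with normexp background correction, over all 14 arrays with the animal as a random block or on the day 7 arrays.

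Every tested gene on the list of the phagocyte NADPH oxidase, the enzyme of the oxidative burst, was higher in neutrophils (9 of 9, all measured on all 7 arrays, background 17.8%, median -5.41). The list holds subunits of the enzyme together with GTPases and an exchange factor. Of the membrane subunits, CYBB read 2.68, 2.52, 2.86 and 2.83 in neutrophils and -2.43, -2.28 and -2.29 in liver. CYBA read 5.40, 5.69, 5.15 and 5.54 in neutrophils and 0.27, 0.12 and 0.22 in liver. They differed by -5.05 ± 0.15 and -5.24 ± 0.17, and no liver reached a neutrophil sample. Cytosolic subunits included NCF4 (-6.21 ± 0.19) and NCF1 (-5.41 ± 0.38), and the GTPase RAC2, the haematopoietic form, differed by -5.58 ± 0.17 and the widely expressed RAC1 by -3.60 ± 0.16. VAV1, the exchange factor of these GTPases, differed by -5.54 ± 0.16. The smallest difference was that of RAP1A, a GTPase that copurifies with the membrane subunits (-2.81 ± 0.17). RAP1A (-2.76 to -2.24) did not pass with the percentile over probes measured on all 7 arrays or on the day 7 arrays.

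Adhesion molecules that let leukocytes roll, stop and cross endothelium were mostly higher in neutrophils. Of 22 members tested (23 on the array), 14 passed for neutrophils and 1 for liver, with a median difference of -4.13 (-4.03 with bounds). For the 20 measured on all 7 arrays the counts were 12 and 1 and the median -4.11. SELPLG, the ligand of P-selectin, read 5.49, 5.93, 5.39 and 5.44 in neutrophils and -2.56, -1.81 and -2.12 in liver (-7.73 ± 0.23), and ITGAM, the α-chain of Mac-1, read -0.50, -0.97, -0.87 and -1.09 in neutrophils and -6.49, -5.76 and -5.84 in liver (-5.17 ± 0.23). JAML (-8.69 ± 0.19), a junctional adhesion molecule of granulocytes, and ICAM3 (-8.55 ± 0.47), a leukocyte ligand of integrins, differed most on this list, and CD53, a leukocyte tetraspanin, by -6.78 ± 0.18. ITGB2, the β-chain of the leukocyte integrins, differed by -5.03 ± 0.15, but CD47, the ligand of SIRPα (-2.13 ± 0.16), and CD63, a tetraspanin of granule membranes (0.82 ± 0.22), did not pass. ICAM1, which endothelium displays to leukocytes, was higher in liver (3.06 ± 0.16). ICAM1 (1.93 to 3.51) did not pass with normexp background correction, over all 14 arrays with the animal as a random block or on the day 7 arrays.

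Receptors for chemoattractants and colony-stimulating factors passed for neutrophils in most cases and for liver in none. With 17 of 17 members on the array tested, 13 passed for neutrophils and 0 for liver (0 at an unadjusted p under 0.05 by treat and 1 at any size by eBayes), with a median difference of -4.46. For the 8 measured on all 7 arrays the counts were 6 and 0 and the median -3.65, and the list's median was -2.95 with normexp background correction. CXCR4, the receptor that holds neutrophils in bone marrow, read 3.26, 3.26, 2.61 and 2.86 in neutrophils and -7.17, -5.93 and -6.02 in liver (-9.37 ± 0.33, 2 of 3 livers well above background), and C5AR1, the main C5a receptor, was at least 99.5-fold higher. CCR3, known from eosinophils, differed by -7.98 ± 0.65 (2 of 3 livers well above background). LTB4R, the leukotriene B4 receptor (-1.64 ± 0.21), and P2RY2, a nucleotide receptor (-0.44 ± 0.31), did not pass.

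Fc receptors and the adaptors that signal for them were mostly higher in neutrophils. Among 17 tested members (of 17 on the array), 14 passed for neutrophils and 2 for liver, with a median difference of -5.30 (-5.06 with bounds). For the 15 measured on all 7 arrays the counts were 13 and 1 and the median -5.30. FCAR, the IgA receptor, read 2.96, 3.73, 2.80 and 1.29 in neutrophils and -6.03, -5.14 and -6.41 in liver (-8.56 ± 0.55), and TYROBP, the adaptor DAP12, read 6.01, 6.39, 6.03 and 6.07 in neutrophils and -0.31, -0.30 and -0.20 in liver (-6.39 ± 0.16). SYK (-6.58 ± 0.20), LCP2 (-5.87 ± 0.26) and FCER1G (-5.82 ± 0.19), the kinase, scaffold and common γ-chain of these receptors, passed with every liver measured. FCGR1A (at least 3.1-fold), the high-affinity IgG receptor, and FCGRT (3.86 ± 0.30), which salvages IgG and albumin from breakdown, passed for liver. The bound of FCGR1A lies under 4-fold. CLEC7A, the β-glucan receptor dectin-1, had 0.26 ± 0.16 and did not pass. FCGR1A (0.96) did not pass with normexp background correction.

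Of the Toll-like receptors and genes of cytokine signalling, many did not pass. The array held 50 members, of which 46 were tested, 23 passed for neutrophils and 3 for liver, with a median difference of -2.44. For the 39 measured on all 7 arrays the counts were 19 and 1 and the median -2.18, and the list's median was -1.54 with normexp background correction. TLR4, the receptor of lipopolysaccharide, read 2.78, 2.84, 2.03 and 2.88 in neutrophils and -3.67, -3.0 and -3.41 in liver (-6.0 ± 0.26), its partner LY96 differed by -5.67 ± 0.21 and the adaptor MYD88 by -6.87 ± 0.24. CD14, the co-receptor that the liver also secretes, was higher in liver (3.49 ± 0.19). The cytokines IL1B (-7.62 ± 0.34) and CXCL8 (-7.26 ± 0.81) and the antagonist IL1RN (-7.22 ± 0.25) were higher in neutrophils, and TNFAIP6, a hyaluronan-binding protein of inflammation, at least 472-fold. CXCL3, a neutrophil chemoattractant, was at least 224-fold higher in liver, and CCL2, which attracts monocytes, at least 12.2-fold. CXCL3 read 2.79, 1.71 and 2.48 in liver and -7.07, -8.05, -7.93 and -7.03 in neutrophils, and its probe is described in the array design as a predicted gene, which may share signal with close chemokines. STAT3 (-1.51 ± 0.30), a transducer of cytokine receptors, and NFKBIZ (-1.48 ± 0.19), a nuclear IκB protein, did not pass. CCL2 (2.08 to 2.52) did not pass with normexp background correction or on the day 7 arrays.

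On the leukotriene and prostaglandin pathway, ALOX5, which makes leukotriene A4, read 0.17, 0.57, 1.43 and 0.00 in neutrophils and -5.80, -5.67 and -5.99 in liver (-6.37 ± 0.33), and its activator ALOX5AP was at least 57.1-fold higher in neutrophils. Of 18 members tested (20 on the array), 8 passed for neutrophils and 2 for liver, with a median difference of -2.52. For the 14 measured on all 7 arrays the counts were 6 and 1 and the median -2.52, and the list's median was -1.62 with normexp background correction. PTGER4, a receptor of prostaglandin E2, passed for neutrophils (-7.43 ± 0.20). CBR1, a carbonyl reductase of prostaglandins and drugs (8.60 ± 0.31), and PTGS1, the constitutive cyclooxygenase (at least 3.77-fold), passed for liver, PTGS1 not without liver animal 61 or 66 or neutrophil animal 26, 32 or 34 (2.60 to 2.86). The bound of PTGS1 lies under 4-fold. LTA4H, the next enzyme towards leukotriene B4, had -2.66 ± 0.42 and did not pass (adjusted p = 0.205), nor did HPGD, which inactivates prostaglandins (-2.39 ± 0.39). PTGS1 (0.87 to 2.83) also did not pass with median scaling, with quantile normalization, with normexp background correction, with the row trend removed, over all 14 arrays with the animal as a random block or on the day 7 arrays.

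The leukocyte actin cytoskeleton was higher in neutrophils for most members. With 28 of 28 members on the array tested, 25 passed for neutrophils and 0 for liver (0 at an unadjusted p under 0.05 by treat and 0 at any size by eBayes), with a median difference of -4.04. For the 27 measured on all 7 arrays the counts were 24 and 0 and the median -4.04. CORO1A, a coronin of haematopoietic cells, read 6.78, 6.81, 6.75 and 6.75 in neutrophils and -0.51, 0.13 and 0.04 in liver (-6.88 ± 0.19), and GMFG, which debranches actin networks, read 6.98, 7.24, 7.05 and 7.07 in neutrophils and 1.14, 0.91 and 0.95 in liver (-6.09 ± 0.15). CNN2, calponin 2, differed by -8.62 ± 0.27 in an edge row. ARHGAP25, which switches off RAC (-6.44 ± 0.17), and HCLS1, an actin-binding adaptor (-5.96 ± 0.26, 1 of 3 livers well above background), also passed. Of the Arp2/3 complex, which branches actin filaments, ACTR2 (-4.04 ± 0.25), ACTR3 (-3.90 ± 0.17), ARPC1B (-3.27 ± 0.20), ARPC3 (-3.0 ± 0.24) and ARPC5 (-4.97 ± 0.21, edge row) passed. ACTB, β-actin, often used as a reference gene, read 8.39, 8.23, 8.31 and 8.57 in neutrophils and 5.33, 5.37 and 3.42 in liver (-3.67 ± 0.45), and did not pass with the percentile over probes measured on all 7 arrays (-3.10) or with quantile normalization (-3.05). ACTG1, γ-actin (-2.0 ± 0.22), and PFN1, profilin (-1.69 ± 0.17), did not pass, and GAPDH, another common reference, read 5.49, 5.85, 5.61 and 5.81 in neutrophils and 3.88, 3.68 and 3.86 in liver by its brightest probe in the first row of spots (-1.88 ± 0.16, and -1.02 and -2.52 by its other probes). Of the 3 GAPDH probes that with -2.52 passed, and with the row trend removed the brightest had 0.20. ACTR2 (-3.48) did not pass on the day 7 arrays. ARPC1B (-3.27 to -2.23) did not pass over all 14 arrays with the animal as a random block or on the day 7 arrays. ARPC3 (-3.75 to -2.43) did not pass with the percentile over probes measured on all 7 arrays, over all 14 arrays with the animal as a random block or on the day 7 arrays. ACTB (-3.05) did not pass with normexp background correction.

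Transcription factors of myeloid cells were mostly higher in neutrophils. Among 19 tested members (of 19 on the array), 15 passed for neutrophils and 0 for liver (1 at an unadjusted p under 0.05 by treat and 1 at any size by eBayes), with a median difference of -4.37. For the 18 measured on all 7 arrays the counts were 14 and 0 and the median -4.22. FOS, an immediate-early factor, read 3.05, 2.40, 2.48 and 3.34 in neutrophils and -5.75, -2.35 and -5.79 in liver (-7.45 ± 0.80), and CREB1, the cyclic AMP response factor, read 0.99, 1.25, 1.02 and 0.69 in neutrophils and -4.52, -4.40 and -4.46 in liver (-5.45 ± 0.17). MYB, known from early progenitors, passed with 2 of 3 livers measured (-5.49 ± 0.48), and NFIL3, a repressor with roles in lymphoid and myeloid cells (-5.32 ± 0.22), also passed. FOSB, an immediate-early factor (0.12 ± 0.50), and IRF5, an interferon regulatory factor (-2.12 ± 0.21), did not pass.

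Genes of survival and apoptosis passed more often for neutrophils. The array held 24 members, of which 23 were tested, 11 passed for neutrophils and 1 for liver, with a median difference of -2.42. For the 22 measured on all 7 arrays the counts were 11 and 1 and the median -2.49. FAS, the death receptor, read 5.20, 5.47, 5.35 and 4.59 in neutrophils and -4.76, -3.31 and -4.14 in liver (-9.23 ± 0.36), and BCL2L11, the BH3-only protein BIM, read 1.84, 2.39, 1.12 and 0.56 in neutrophils and -3.86, -3.78 and -3.92 in liver (-5.33 ± 0.40). Known inhibitors of death were higher as well, with BIRC3 (-5.18 ± 0.17, edge row), an inhibitor of apoptosis protein, and PIM1 (-5.63 ± 0.20), a survival kinase. CASP6, a caspase (-1.31 ± 0.16), and XIAP, which blocks caspases (-2.42 ± 0.17), did not pass, and CYCS, cytochrome c, was higher in liver (3.04 ± 0.28). CYCS (2.12) did not pass on the day 7 arrays.

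Interferon-stimulated genes were higher in neutrophils for most members. Of 22 members tested (22 on the array), 18 passed for neutrophils and 1 for liver, with a median difference of -4.28. For the 19 measured on all 7 arrays the counts were 15 and 1 and the median -4.16. ISG15, a ubiquitin-like modifier, read 7.08, 6.97, 6.95 and 7.98 in neutrophils and 1.65, 0.39 and -0.24 in liver (-6.64 ± 0.45). IFITM1 (-8.14 ± 0.24), which hinders virus entry, and the RNA sensors OAS2 (-6.86 ± 0.55) and OAS1X (-8.09 ± 1.02, 2 of 3 livers well above background) also passed, and OAS1X has close copies that may share signal. GBP4 (-1.51 ± 0.27), a guanylate-binding protein, and UBA7 (-2.59 ± 0.27), of the same modifier pathway, did not pass. CXCL10, a chemokine induced by interferon, was higher in liver (3.15 ± 0.45), but did not pass without liver animal 58 or 61 or neutrophil animal 26 or 32 (2.78 to 3.17). For antigen presentation, 6 of 16 members passed for neutrophils and 1 for liver, the protease LGMN (3.15 ± 0.24). TAP2, the peptide transporter (-4.89 ± 0.36), BOLA-DMA (-4.14 ± 0.19) and BOLA-DOB (-3.66 ± 0.29), which edit class II peptides, were higher in neutrophils. The class I heavy chain BOLA (-1.86 ± 0.16), of a polymorphic family, and TAPBP, tapasin (-2.03 ± 0.15), did not pass. CXCL10 (0.61 to 3.15) did not pass with median scaling, with normexp background correction, without the filter on dim probes, over the inner spot rows alone, with the row trend removed, over all 14 arrays with the animal as a random block, on the day 7 arrays or with array weights. LGMN (2.69) did not pass on the day 7 arrays. BOLA-DOB (-2.35) did not pass with normexp background correction.

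Few genes of the ribosomal and proteasome lists passed. Of 64 cytosolic ribosomal proteins tested, 0 passed in either direction (limma treat, 0 at an unadjusted p under 0.05), against a background of 17.5% each way, while 35 differed at any size (eBayes, adjusted p under 0.05, background 83.2%). Their median difference was 0.295 and their range -2.57 (RPL28) to 1.71 (RPL6). RPL7A (0.64 ± 0.15) and RPS14 (1.01 ± 0.14) had the brightest probes. With median scaling the median of the list was -0.004, so no direction is given for it. Of 29 proteasome genes 1 passed, PSMB5 (2.93 ± 0.19), a catalytic subunit that the interferon-induced PSMB8 replaces in the immunoproteasome. PSMB8 itself differed by -4.16 ± 0.17 (edge row) and PSMB9, another inducible subunit, by -3.45 ± 0.16. Both passed for neutrophils and lie outside the 29 genes counted. PSMB4 (0.07 ± 0.16), of the core, and PSME2 (-1.01 ± 0.17), of its activator, did not pass.

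Respiratory chain and ATP synthase subunits had a median of 1.37 over 74 genes, beside -0.03 over all named genes. The test was passed by 10 for liver and 1 for neutrophils, beside backgrounds of 9.81% and 17.8%. ATP5MC1, of the membrane ring of ATP synthase (3.58 ± 0.21), NDUFC1 (3.14 ± 0.19) and NDUFV1 (3.12 ± 0.20), of complex I, and SDHA (3.08 ± 0.14), of complex II, were among those for liver, and NDUFV3 (-2.52 ± 0.17) was the one for neutrophils, which did not pass without liver animal 58 or 61 (-2.51 and -2.47). COX4I1 (0.11 ± 0.14) and COX6A1 (-0.50 ± 0.17, edge row), of complex IV, did not pass. Of 17 tested genes on the list of the tricarboxylic acid cycle, 8 passed for liver and 0 for neutrophils (treat, 0 at an unadjusted p under 0.05 and 1 by eBayes, median 2.10). At the top were IDH1 (5.01 ± 0.23), a cytosolic source of NADPH, FH (3.76 ± 0.24), fumarase, and MPC2 (3.41 ± 0.19), of the mitochondrial pyruvate carrier. IDH1 and MPC2 are on the list but lie outside the cycle itself. SUCLG2, of succinyl-CoA ligase (1.77 ± 0.17), did not pass. Of 24 genes of folding and secretion in the endoplasmic reticulum, 7 passed for liver and 0 for neutrophils (treat, 0 at an unadjusted p under 0.05 and 1 by eBayes), among them PDIA4 (4.42 ± 0.34) and P4HB (3.46 ± 0.14), which form disulfides, and LMAN1 (4.23 ± 0.23), which carries coagulation factors. CALR, the chaperone calreticulin (1.23 ± 0.30), and SSR2, of the translocon (0.65 ± 0.15), did not pass. NDUFC1 (2.87) did not pass on the day 7 arrays. NDUFV3 (-2.52 to -1.96) did not pass with the percentile over probes measured on all 7 arrays, with quantile normalization, with normexp background correction, over all 14 arrays with the animal as a random block or on the day 7 arrays.

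Glycolysis and the pentose phosphate pathway were divided. With 21 of 21 members on the array tested, 8 passed for neutrophils and 2 for liver, with a median difference of -1.88. For the 19 measured on all 7 arrays the counts were 6 and 2 and the median -1.55, and the list's median was -0.15 over the inner spot rows alone and -0.80 on the day 7 arrays. The oxidative pentose phosphate enzyme PGD (-4.42 ± 0.23), which makes NADPH, and the non-oxidative enzyme TKT (-4.11 ± 0.16) were higher in neutrophils. PGD read 5.62, 5.98, 6.50 and 6.13 in neutrophils and 1.44, 1.81 and 1.66 in liver. PKLR, the pyruvate kinase of liver and red cells, read 3.65, 3.69 and 3.29 in liver and -3.14, -3.0, -3.22 and -3.21 in neutrophils (6.68 ± 0.16), and LDHB, a lactate dehydrogenase chain (-0.15 ± 0.18), did not pass.

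The labels were checked against markers of each cell type, given as log2 of their summed signals. The 13 hepatocyte markers on the array summed to 9.75 to 9.79 in liver and 0.725 to 1.37 in neutrophils, and 9 of them were not well above background on any neutrophil array. The 11 neutrophil markers summed to 9.67 to 9.93 in neutrophils and to 2.08, 3.43 and 2.16 in liver animals 58, 61 and 66, with LTF the 1 marker that did not pass in neutrophils. The defining markers of each label were thus high in its own samples. Among the livers the sum of the neutrophil markers was highest in animal 61, where LTF made up most of it. Animal 61 lay above the mean of the livers for 65.8% of the 766 fully measured genes higher in neutrophils. The shares were 40.1% in animal 58 and 45% in animal 66. Over all 4292 fully measured genes that share was 48.4% in animal 61.

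Part of the markers of lymphocytes passed for neutrophils. T and NK cell markers summed to 4.78 to 5.78 there and 0.854 to 1.31 in liver, and 6 of 15 tested passed for neutrophils, beside 17.5% of all named genes. For the 12 measured on all 7 arrays the count was 5 (background 17.8%) and the median -2.24. GZMB, a cytotoxic granule protease, read 3.91, 2.93, 3.29 and 4.97 in neutrophils and -3.28, -2.53 and -3.79 in liver (-6.97 ± 0.50), and CD3E, of the T cell receptor complex, read 1.33, 0.57, 1.36 and 1.19 in neutrophils and -2.77, -2.76 and -6.26 in liver (-5.04 ± 0.80). CD8A had -1.26 ± 0.31 and did not pass. Of 7 B cell markers 3 passed for neutrophils, BLK (-4.27 ± 0.37), POU2AF1 (at least 4.24-fold) and MS4A1 (at least 7.05-fold). Of the 7, 3 were tested through the neutrophil arrays alone. Among the 4 measured on all 7 arrays 1 passed (background 17.8%), with a median of -1.25. The array held 3 eosinophil, basophil or mast cell markers, of which HDC, histidine decarboxylase, passed for liver (3.47 ± 0.46), CCR3 for neutrophils and the other for neither. CCR3 read 0.63, 0.75, 1.89 and 0.19 in neutrophils and -8.76, -6.25 and -6.33 in liver, highest in animal 32, which also had the highest ALOX15, and the sum of that list, close to the value of CCR3 alone, was 1.9 in animal 32 against 0.211 to 0.775 in the others. The share of lymphocyte and eosinophil RNA in the values of the neutrophil lists was not tested, and in bulk RNA fewer cells of a type and less RNA per cell cannot be told apart. Of 4 platelet markers ITGA2B, an integrin chain, passed for neutrophils (-3.25 ± 0.18), 2 were higher in liver at any size (eBayes), and their sums overlapped (1.5 to 2.04 in neutrophils and 1.49 to 2.29 in liver). Of 5 erythroid markers tested 0 passed (treat, 0 at an unadjusted p under 0.05, 3 by eBayes). POU2AF1 (-4.14 to -0.68) did not pass with normexp background correction or on the day 7 arrays. MS4A1 (-3.29 to -1.06) did not pass with the percentile over probes measured on all 7 arrays, with normexp background correction or over all 14 arrays with the animal as a random block. HDC (1.46 to 3.53) did not pass with median scaling, with quantile normalization or with normexp background correction. It also did not pass without liver animal 58 or neutrophil animal 32 (3.336 and 3.385).

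Most tested markers of macrophages, endothelium and stellate cells passed for liver, beside 17.5% of all named genes. Fewer did among those measured on all 7 arrays (background 9.81%). There 4 of 6 macrophage, 1 of 4 endothelial and 0 of 2 stellate cell markers passed for liver, with medians of 4.47, 2.05 and 0.371. Of 8 monocyte and macrophage markers 6 passed for liver, among them TIMD4 (8.42 ± 0.32, 1 of 4 neutrophil samples well above background), a phosphatidylserine receptor of resident macrophages, MRC1 (5.45 ± 0.62) and VSIG4 (4.10 ± 0.29), while CD68, a lysosomal protein of phagocytes, was higher in neutrophils (-4.64 ± 0.20). Of 12 endothelial markers tested 7 passed for liver and 0 for neutrophils (treat, 0 at an unadjusted p under 0.05 and 0 by eBayes), with LYVE1, of sinusoidal and lymphatic endothelium, at least 91.5-fold higher and TEK 92.3-fold; 8 of the 12 were not well above background on all neutrophil arrays. Of 12 stellate cell and fibroblast markers 9 passed for liver, with DCN at least 463-fold, COL3A1 at least 243-fold and RELN at least 199-fold higher; 10 of the 12 were not well above background on all neutrophil arrays. Markers of bile ducts did not separate the tissues: of 6 tested, 2 passed for liver, EPCAM among them (at least 32.6-fold), and CLDN4 for neutrophils (-2.69 ± 0.24), and the sums overlapped (1.11 to 2.44 in liver and 0.697 to 2.08 in neutrophils). Most skeletal muscle markers were not well above background on every array of either tissue. Of 11 on the array 2 could be tested, MYH7 (-1.58 ± 0.31) and TPM2 (-1.46 ± 0.24), and neither passed. VSIG4 (2.14) did not pass with normexp background correction. CLDN4 (-2.78 to -2.05) did not pass with the percentile over probes measured on all 7 arrays, with normexp background correction, over all 14 arrays with the animal as a random block or on the day 7 arrays. Nor did CLDN4 pass without liver animal 66 or neutrophil animal 26 (-2.47 and -2.54).

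**Figure D5:**
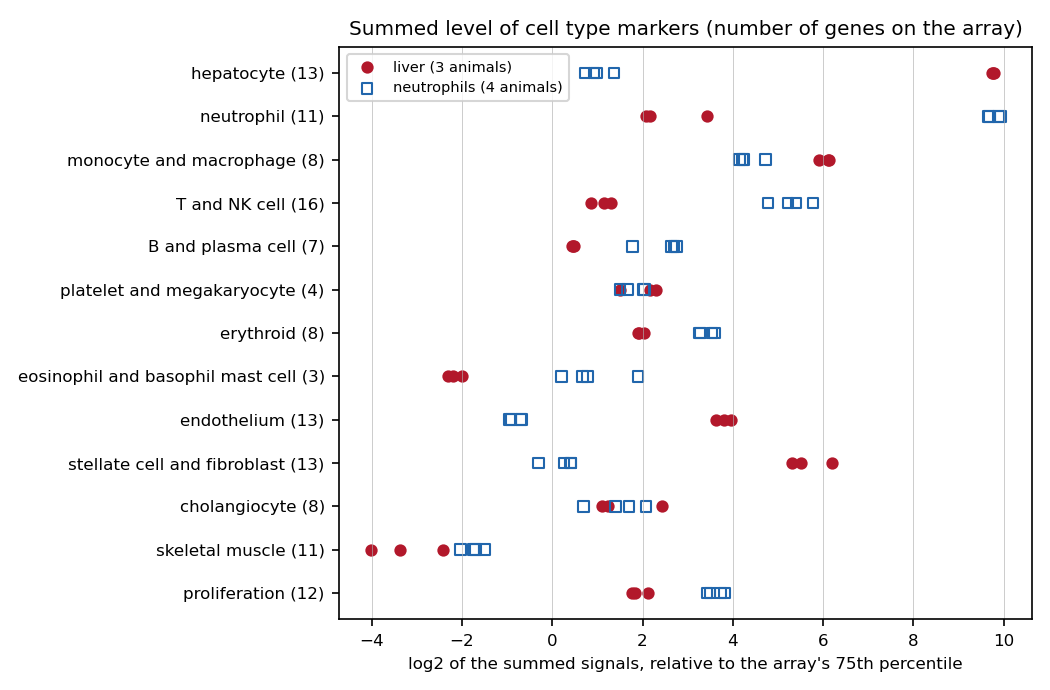
Log2 of the summed signals of the markers of 13 cell types or states, relative to the array's 75th percentile, in each animal (red circles, 3 livers; blue squares, 4 neutrophil samples), with the number of markers on the array in brackets. Hepatocyte and neutrophil markers separate the tissues by more than 6 log2 units, lymphocyte markers are higher in all neutrophil samples, and endothelial and stellate markers in all livers.

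Some genes that passed in one direction stood in runs of neighbours in the genome. Of genes with a position, 30.6% of those for liver and 31.1% of those for neutrophils had another of their direction within 3 places. No such share was computed for other genes, so these shares have no background. In the order of protein-coding genes of the RefSeq gene table (assembly ARS-UCD2.0, used for order alone), genes that passed for liver stood side by side as FGA, FGB and FGG with LRAT, as KNG1, HRG, FETUB and AHSG, as C8A and C8B, and as the collectins CGN1, CL46, CL43, SFTPD and MBL1. Of these, CL46 did not pass without liver animal 58 or 66 or neutrophil animal 25, 26 or 32 (2.69 to 3.05). Collectins are soluble lectins that bind microbial sugars. For neutrophils the runs included CAMP, CATHL4, CATHL1, CATHL3, CATHL2 and CATHL6, which spanned 9 genes with all 6 of those tested passing, CD3E, CD3D and CD3G beside JAML (CD3D in an edge row), IFNAR1, IL10RB and IFNAR2, which are cytokine receptor chains, and TLR7 and TLR8 beside TMSB4X. The immunoproteasome genes PSMB8 and PSMB9 stood beside TAP2, BOLA-DOB and BOLA-DMA. Runs were taken where at least 3 genes of one direction stood within 3 places of each other, with no test, and members of one family can share probe signal. Those named are a selection of the runs found. CL46 (0.62 to 2.99) also did not pass with median scaling, with normexp background correction, over all 14 arrays with the animal as a random block or on the day 7 arrays. CD3D (-1.81) and CD3G (-2.63) did not pass with normexp background correction. IFNAR1 (-3.78 to -2.50) did not pass over all 14 arrays with the animal as a random block or on the day 7 arrays. IL10RB (-3.29) did not pass on the day 7 arrays. TLR7 (-2.94 to -1.15) did not pass with the percentile over probes measured on all 7 arrays or with normexp background correction. TMSB4X (-3.14 to -2.93) did not pass with the percentile over probes measured on all 7 arrays, with quantile normalization, with normexp background correction or on the day 7 arrays.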

How the data were processed

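Total RNA (Trizol), amplified and labelled with Cy3, was hybridised to single-colour Agilent bovine arrays. Per the file headers, the authors' Feature Extraction software 9.5.1.1 (9.5 in the submitters' processing notes) wrote the deposited spot intensities, corrected for background and spatial trend within each array, with low spots set to a surrogate value, and flags for spots well above background. The deposited log2 table of the authors followed log2 of the same intensities minus a constant per array (correlation 1 on each array, offsets 0.0066 to 0.013) and served as an alternative. The genome build behind the probes was not given in the sources used here.

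Control and outlier spots were left out, spots of a probe averaged and each array's 75th percentile subtracted on the log2 scale. Probes that all arrays of either tissue measured well above background were fitted in limma 3.58.1 (R 4.3.3) over the 7 arrays, with treat (minimum log2 difference 2) for large and eBayes for any differences. Recovery was tested on simulated data. Of 15011 probes, 6885 were named, 2481 by accession, 1978 by gene number and 1446 by symbol through the RefSeq gene table (ARS-UCD2.0), and 980 by a described similarity to a human gene. The number of arrays limits the precision.

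The tissue groups and the gene lists were chosen with earlier results of these data known. The genes named were, per direction, the 12 with the largest difference, and of each list up to 5 that passed with the largest difference, up to 2 that did not pass with the highest signal, and any that passed against the list's direction; of marker lists any member, with GAPDH and ACTB as common genes. Some genes of the rule are not reported here. Outside this rule, and chosen after their values were seen, are ACTR2, ACTR3, APOA1, APOE, ARPC1B, ARPC3, ARPC5, ASL, ASS1, CAMP, CATHL2, CATHL5, CATHL6, CGN1, CL43, CL46, CLU, CYBA, CYBB, F7, FETUB, HAMP, HNF4A, HRG, IFNAR1, IFNAR2, IGF1, IL10RB, ITGB2, LY96, MAOB, MBL1, MYD88, NDUFV3, RAC1, RAP1A, RPL28, RPL6, SFTPD, TLR4, TLR7, TLR8 and TMSB4X. The alternatives covered scaling, background, filters, spot position, samples and thresholds.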

Additional observations from a re-analysis of the deposited data

Results flagged for a closer look

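In the 4 neutrophil samples, 1 sample stood apart from the other 3 in 40 of 299 named genes, judged by its gap to the nearest other sample as a share of the whole range against Dixon's limit for 4 samples. Chance flags about 1 gene in 20, and the 3 livers are too few for this measure. In 18 of the 40 genes no neutrophil sample was well above background, and the gap of 0.842 is that between the lowest values of the arrays, which was highest on the array of animal 34. These genes were ABCG5, AHSG, APOH, C4BPA, CGN1, CL46, FABP1, FGA, FOXA2, GHR, GSTA2, KNG1, LYVE1, NR5A2, PRLR, RBP4, SLC2A2 and TTR.

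The other 22 genes were well above background in at least 1 neutrophil sample, and each is given with its gap, then the sample's log2 value and those of the others. Animal 34 stood apart in ISG15 (0.875, animal 34 at 7.98 against 6.95 to 7.08), MMP9 (0.900, animal 34 at 3.42 against 2.65 to 2.73), PSMB4 (0.872, animal 34 at 4.36 against 4.04 to 4.08), SERPINF2 (0.917, animal 34 at -7.03 against -5.52 to -5.38) and SULT2A1 (0.908, animal 34 at -3.64 against -8.05 to -7.65). Animal 26 stood apart in CD3D (0.841, animal 26 at -3.32 against -2.59 to -2.45), CD68 (0.889, animal 26 at 4.68 against 4.05 to 4.12), CLDN4 (0.850, animal 26 at -0.64 against -1.30 to -1.20), CYCS (0.936, animal 26 at -3.08 against -2.27 to -2.21), NCF1 (0.843, animal 26 at 5.35 against 4.86 to 4.94), RPL28 (0.883, animal 26 at -2.43 against -2.96 to -2.90), TYROBP (0.849, animal 26 at 6.39 against 6.01 to 6.07), UGP2 (0.861, animal 26 at 3.35 against 3.18 to 3.2) and VAV1 (0.892, animal 26 at 5.87 against 5.66 to 5.68).

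Animal 32 stood apart in CASP6 (0.967, animal 32 at 2.25 against 2.04 to 2.04), CFP (0.839, animal 32 at 0.25 against 0.58 to 0.64), HPGD (0.971, animal 32 at 5.13 against 3.68 to 3.72), SOCS2 (0.881, animal 32 at 2.46 against 0.49 to 0.72), SULT1A1 (0.919, animal 32 at 3.39 against 3.21 to 3.23) and TLR4 (0.878, animal 32 at 2.03 against 2.78 to 2.88). Animal 25 stood apart in CNN2 (0.833, animal 25 at 5.86 against 6.12 to 6.17) and LGMN (0.858, animal 25 at 1.52 against 0.79 to 0.89). HPGD, which inactivates prostaglandins, and SOCS2, a feedback inhibitor of cytokine receptors, showed wide gaps in animal 32, the animal with the highest CCR3 and ALOX15.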

How the results depend on the processing

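No paired analysis was possible because liver and neutrophils came from different cattle. The counts for liver and neutrophils were 1887 and 2040. Counts changed by over 1.5 times in these cases. Probes well above background on all 7 arrays gave 783 for liver, normexp background correction gave 1302 for neutrophils and the day 7 arrays of the same cattle 1261 for neutrophils. The inner spot rows, with fewer probes tested, gave 1157 and 1092, with 5605 probes that differed at all in place of 9559. A minimum log2 difference of 1 gave 3051 and 3433, and one of 3 gave 1244 and 1055. Leaving out each animal in turn gave 1774 to 1911 for liver, 1923 to 2051 for neutrophils and 9218 to 9603 at any size.

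No probe changed direction among those that passed under these or the other alternatives of scaling, filters, weights and the 14-array fit. Of 235 named genes that passed, 182 passed under every alternative that tested them, 53 did not pass under at least 1 and 0 changed sign. Genes that had not passed changed sign as follows, and apart from the effect of each scaling on all probes the cause was not tested. With the percentile over probes measured on all 7 arrays the differences were 0.0033 for AHCY, 0.013 for ALDH8A1, 0.10 for CATHL5, 0.071 for COX6A1, 0.42 for LDHB and 0.12 for P2RY2. With median scaling the differences were -0.042 for CLEC7A, -0.19 for COX4I1, -0.18 for FOSB, -0.23 for PSMB4 and -0.24 for UGP2. With quantile normalization the differences were -0.032 for CLEC7A and 0.28 for LDHB. With normexp background correction the difference was 0.27 for LDHB. With the trend along the rows removed the differences were 0.40 for COX6A1, 0.20 for GAPDH and -0.079 for PSMB4. On the day 7 arrays of the same cattle the differences were -0.18 for CLEC7A, -0.38 for HP, -0.62 for LTF, 3.54 for MYH7 and 0.18 for P2RY2. Leaving out single animals gave -1.39 to 0.80 for AHCY, above 0 without liver animal 66, and -0.46 to 0.59 for FOSB, below 0 without liver animal 58 or neutrophil animal 25 or 34. The signal over background limits all genes whose dimmer tissue was not well above background, for which bounds are given.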
